A study of Sus scrofa with 15 samples.

Results

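The genes described here make up the insulin-like growth factor axis of the piglet testis. A list of 10 genes was used, with the growth factors IGF1 and IGF2, the receptors IGF1R, IGF2R and INSR, and the binding proteins IGFBP2, IGFBP3, IGFBP4, IGFBP5 and IGFBP6. Members were chosen by name alone, as the rows of the gene table whose symbol matched the list. Of the 10 genes, 7 were found by symbol among 30476 rows, of which 16446 carried a symbol. These 7 were IGF1, IGF1R, INSR, IGF2R, IGFBP2, IGFBP4 and IGFBP5. All 7 passed the filter on low counts and were among the 15634 genes tested. IGF2 and IGFBP3 were not analysed here, and IGFBP6, found under an identifier only, is given among the closing observations.

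Insulin-like growth factors are small secreted proteins that resemble insulin and drive growth and survival through the tyrosine kinase receptor encoded by IGF1R. The insulin receptor, encoded by INSR, is built in the same way and can form hybrids with it, whereas IGF2R carries IGF2 to the lysosome and does not signal as a kinase. Binding proteins hold the growth factors outside the cell and limit or prolong their action. In the testis these factors act on Sertoli, Leydig and germ cells, and insulin family receptors are needed for normal testis formation and Sertoli cell proliferation in the mouse.

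Testis RNA came from 15 male piglets of Dutch Landrace Duroc sows, fed 5 diets with 3 piglets to a diet, and each piglet gave 1 library. The piglets came from many litters, were housed individually, were fed from postnatal day 2 and were killed on postnatal day 21. Commercial sow milk given by bowl (Sow) was set against formula made from soy (Soy) or from cow's milk (Milk). In M + E2 the cow's milk formula held added 17beta-estradiol, dosed at 2 mg/kg/d, and in M + G it held genistein, 84 mg/L. The methods give that genistein concentration for the diet and the labels give it for serum, and the 2 added compounds were not dose-matched, so their groups are set side by side without a statement on potency.

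Libraries held between 6097552 and 9488579 counted reads, with a median of 8198038. Levels are given as CPM, counts relative to the total of each library, scaled by TMM, a normalization for differences in RNA composition. The column names of 1 Sow library and 1 Soy library carry no number, and these are called unnumbered. Sow 2 was left out of the tests because the study's methods excluded it, and it had the lowest level of 5 of the 7 genes, against 23.9% of all genes tested. The gene table held 5 of 6 Leydig, 8 of 8 Sertoli and 5 of 7 germ cell markers. All of these had reads in all 15 libraries except the germ cell marker DPPA4, which had 0 to 7 reads. Summed Leydig markers were at least 10394 CPM, and summed Sertoli markers at least 1361 CPM, in every library. In M + E2, Leydig markers were 13015 to 13933 CPM, lower than in every other library except Milk 2. Sertoli markers were 3328 to 3431 CPM there, a range that only M + G 3 reached otherwise, at 3372 CPM. Germ cell markers were 208.8 to 267.7 CPM, a range that only Soy 3 reached otherwise, at 234.9 CPM. The study counted more Sertoli and germ cells in M + E2 than in Milk. The part of these differences in the levels of the 7 genes was not tested. Since the tissue is bulk testis, a lower level from fewer cells of a type and one from less RNA per cell cannot be told apart.

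In the edgeR test, none of the 7 genes passed an adjusted p of 0.05 with a 2-fold difference in any of the 10 pairwise comparisons of diets. The share of all genes called was highest in M + E2 against Sow, with 1.44% higher and 3.56% lower, and lowest, at 0.00%, in 5 comparisons among formula-fed groups. The test over all 5 diets also called none of the 7, against 0.0640% of all genes, and 1 gene, IGFBP4, had an unadjusted p under 0.05. Levels were nevertheless not evenly spread over libraries. The receptors were high in all M + E2 libraries, IGFBP4 and IGFBP5 were lower in Sow than in every formula-fed library, and IGF1 was high in 3 libraries of 3 different diets.

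**Figure D1:**
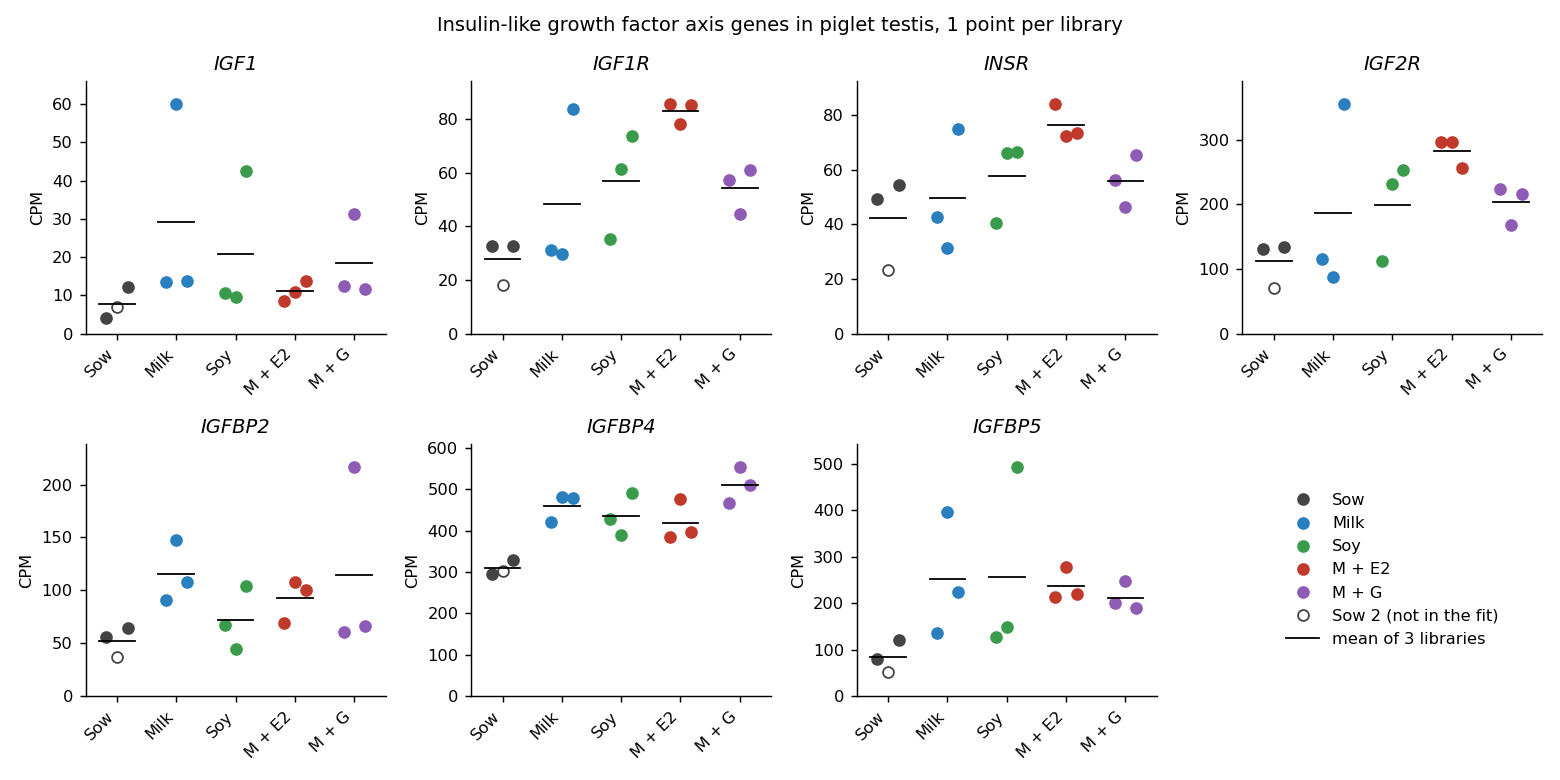
Normalised level of each of the 7 genes (CPM, vertical axis, from 0) by diet group. Each point is 1 library, the open point is Sow 2, and the line is the mean of 3 libraries. IGF1R is 78.2 to 85.6 CPM in the M + E2 libraries, IGFBP4 is at most 330.0 CPM in Sow and at least 385.4 CPM elsewhere, and IGF1 is above 31.1 CPM in 1 Milk, 1 Soy and 1 M + G library.

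IGF1 (ENSSSCG00000000857, chromosome 5, 81762027 to 81909253 in Sscrofa11.1) encodes the secreted growth factor. In Sow, its level was 4.03 CPM in the unnumbered library, 6.85 CPM in Sow 2 and 12.1 CPM in Sow 3. It was 13.6, 60.02 and 13.7 CPM in Milk 1, 2 and 3, and 10.5, 9.52 and 42.5 CPM in Soy unnumbered, 2 and 3. It was 8.50, 10.8 and 13.7 CPM in M + E2 1, 2 and 3, and 12.4, 31.2 and 11.8 CPM in M + G 1, 2 and 3. Milk 2, Soy 3 and M + G 2 were thus well above the others, which ranged from 4.03 to 13.7 CPM. Group means ran from 7.65 ± 4.08 CPM in Sow (SD, n = 3) to 29.1 ± 26.8 in Milk, with M + E2 at 11.01 ± 2.60, M + G at 18.5 ± 11.03 and Soy at 20.8 ± 18.8 between them. Neighbouring groups in this order overlapped, and in Soy and Milk the SD was nearly as large as the mean.

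All 3 Milk libraries were above the Sow libraries for IGF1, with a log2 fold change of 1.80 (SE 0.82) that did not pass the test (adjusted p = 0.409). Without Milk 2 the log2 fold change was 0.72, with an adjusted p of 0.617. M + E2 was lower than Milk by a log2 fold change of -1.41 (95% interval -2.91 to 0.08, adjusted p = 0.302), and the groups overlapped. Without Milk 2 that difference was -0.33. The log2 fold change of M + E2 against Sow was 0.39, with a 95% interval from -1.35 to 2.13. Without Soy 3 the difference of Soy from Sow was 0.30 in place of 1.37, and without M + G 2 that of M + G from Sow was 0.55 in place of 1.16.

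The same 3 libraries were high in markers of contractile cells. The summed level of the 4 peritubular myoid markers ACTA2, MYH11, CNN1 and DES was 2221 CPM in Milk 2, 2967 CPM in Soy 3 and 1582 CPM in M + G 2. It was 174.2 to 619.9 CPM in the other 12 libraries, and none of the 4 markers was at 0 in any library. These 3 libraries were also the 3 highest for 786 of the genes tested, or 5.03%. Other cell markers differed there too. Summed Sertoli markers were lowest in these libraries, at 1361 CPM in Milk 2, 1590 CPM in Soy 3 and 1793 CPM in M + G 2. Summed endothelial markers were highest in Soy 3 and Milk 2, at 1041 and 945.5 CPM, and were 624.3 CPM in M + G 2. The part of contractile cells or of other cell types in the IGF1 level was not tested.

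**Figure D2:**
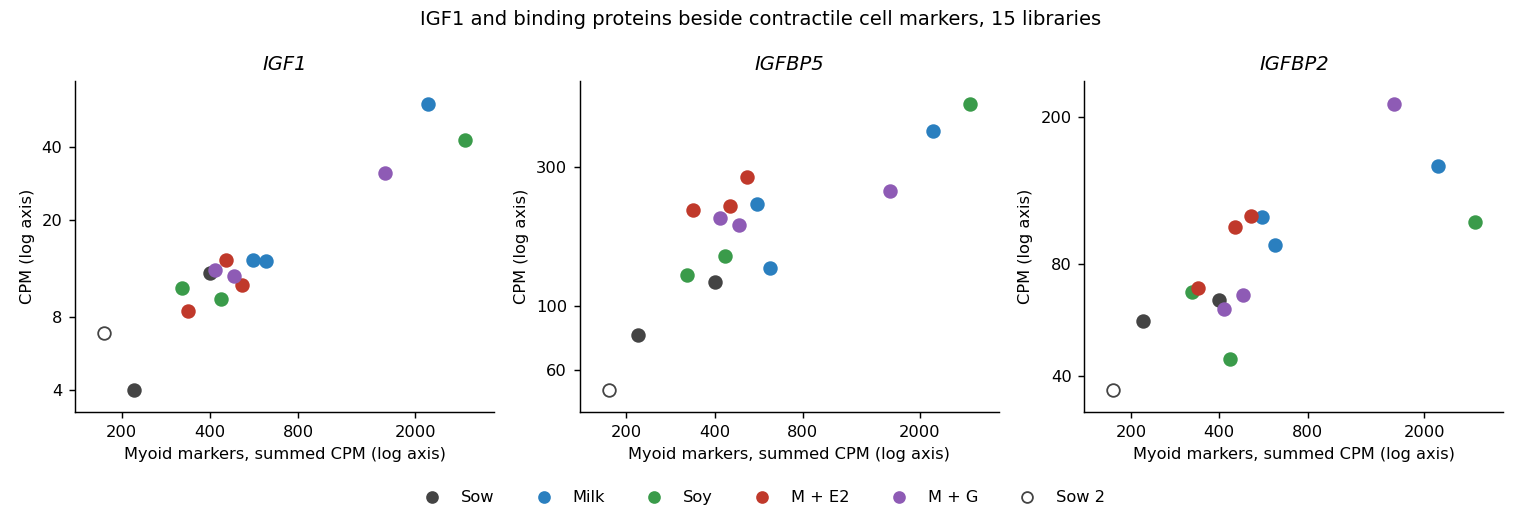
Level of IGF1, IGFBP5 and IGFBP2 (CPM, vertical log axes) against the summed level of 4 peritubular myoid markers (CPM, horizontal log axes), with 1 point per library coloured by diet and Sow 2 open. The 3 libraries at the right, with 1582 to 2967 CPM of markers, have 31.2 to 60.02 CPM of IGF1, and the other 12 have 4.03 to 13.7 CPM.

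IGF1R (ENSSSCG00000030560, chromosome 1, 137383623 to 137691038) encodes the signalling receptor of the axis. Its level was 32.8, 18.1 and 32.5 CPM in Sow unnumbered, 2 and 3. The M + E2 libraries stood at 85.6, 78.2 and 85.2 CPM, all above the other groups except for Milk 3. Milk was split, with 31.3 and 29.7 CPM in Milk 1 and 2 and 83.7 CPM in Milk 3. Soy was also uneven, with 35.2 CPM in the unnumbered library and 61.4 and 73.8 CPM in Soy 2 and 3. M + G lay between, at 57.3, 44.7 and 60.9 CPM. The M + E2 mean of 83.0 ± 4.19 CPM (SD, n = 3) was thus the highest of the 5 groups and had a smaller SD than the Milk mean of 48.2 ± 30.8 CPM.

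IGF1R differed most between M + E2 and Sow, where it was 2.43-fold higher (log2 1.28, SE 0.41). The adjusted p of 0.0600 missed the threshold, and the 95% interval of the log2 difference ran from 0.41 to 2.15. With edgeR's exact test, the kind of test the study names, fitted here to these groups alone, IGF1R passed with a log2 fold change of 1.30 (adjusted p = 4.7e-14). That test called 12.6% of all genes in this comparison and also passed IGF2R and IGFBP5. Without Sow 3, and with Sow 2 put back, the log2 fold change was 1.70. M + E2 was above Milk by a log2 fold change of 0.76 (SE 0.35, adjusted p = 0.277). All 3 M + E2 libraries exceeded all M + G and all Soy libraries for each of the 3 receptors, as they did for 10.1% and 12.8% of all genes. The IGF1R log2 differences of 0.58 from M + G and of 0.49 from Soy did not pass (adjusted p = 0.777 and 0.570).

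Leaving out Milk 3 changed the comparison of M + E2 with Milk. IGF1R was then higher in M + E2 by a log2 fold change of 1.42 (adjusted p = 0.0195), IGF2R by 1.44 (adjusted p = 0.0197) and INSR by 1.02 (adjusted p = 0.0214). All 3 passed the 2-fold threshold, when 8.04% of all genes did so against 0.00% with Milk 3 included. Milk 3 was chosen as the library to leave out only as part of leaving out each library in turn. Without Milk 2, the IGF1R, IGF2R and INSR differences were 0.50, 0.24 and 0.35 (adjusted p = 0.644, 0.851 and 0.663). Without Milk 1, those of IGF1R and INSR were 0.54 and 0.52 (adjusted p = 0.621 and 0.589). None of the 7 genes, IGF2R included, was called without Milk 1, when 0.00% of all genes were.

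INSR (ENSSSCG00000013566, chromosome 2, 71797209 to 71939923) encodes the insulin receptor. Its level was 49.4, 23.3 and 54.5 CPM in Sow unnumbered, 2 and 3, and 84.0, 72.2 and 73.3 CPM in M + E2 1, 2 and 3. Milk 1, 2 and 3 stood at 42.8, 31.2 and 74.8 CPM, so that Milk 3 again reached the M + E2 range. Soy unnumbered, 2 and 3 stood at 40.4, 66.1 and 66.6 CPM, and M + G 1, 2 and 3 at 56.3, 46.3 and 65.3 CPM. No group other than M + E2 was clear of Sow, since each other formula group reached into the Sow range. The log2 fold change of M + E2 was 0.49 against Sow (adjusted p = 0.279) and 0.60 against Milk (SE 0.28, adjusted p = 0.280). In Soy, Milk and M + G the interval of the difference from Sow lay within 2-fold in either direction. On the log2 scale it ran from -0.53 to 0.81, from -0.78 to 0.56 and from -0.60 to 0.74.

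IGF2R (ENSSSCG00000004044, chromosome 1, 7369485 to 7472480) encodes the receptor that clears IGF2. Its level was 130.1, 71.1 and 134.5 CPM in Sow unnumbered, 2 and 3. It was 295.7, 296.5 and 255.7 CPM in M + E2 1, 2 and 3, and 115.8, 88.0 and 355.0 CPM in Milk 1, 2 and 3. The highest level of all 15 libraries was therefore in Milk 3, not in M + E2. Soy unnumbered, 2 and 3 stood at 112.6, 231.9 and 252.2 CPM, and M + G 1, 2 and 3 at 224.1, 168.6 and 216.1 CPM. M + E2 and M + G did not overlap Sow, whereas Milk and Soy did. The log2 fold change of M + E2 was 1.03 (SE 0.49) against Sow, with an adjusted p of 0.153, and 0.58 against Milk, with an adjusted p of 0.447.

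The 3 receptors varied together over the 14 libraries of the fit. Pearson's r of log2 CPM was 0.89 to 0.97 for the 3 receptor pairs, and 0.62 to 0.82 for the 6 pairs among IGF1, IGFBP2, IGFBP4 and IGFBP5. It was -0.40 to 0.42 for the 12 pairs of a receptor with any of those 4 genes. These values describe libraries that share diets and differ in composition, and they are given without a test.

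The receptor levels moved with the amount of ribosomal protein transcripts. The summed level of 53 ribosomal protein genes was 57142 to 111689 CPM in 6 libraries, namely the 3 Sow libraries, Milk 1, Milk 2 and Soy unnumbered, and 23659 to 41598 CPM in the other 9. IGF1R was 18.1 to 35.2 CPM in those 6 libraries and 44.7 to 85.6 CPM in the 9. IGF2R was 71.1 to 134.5 CPM in the 6 and 168.6 to 355.0 CPM in the 9. Both receptors thus separated the 2 sets without overlap, as did 8.08% of all genes in this direction, while INSR overlapped. Within the 9 libraries with fewer ribosomal protein transcripts, the 3 M + E2 libraries and Milk 3 were the 4 highest for IGF1R. The share of all genes with that order was not computed.

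With the ribosomal protein share as a covariate, a fit added after the data were seen, the log2 fold change of IGF1R in M + E2 against Sow was 0.59 in place of 1.28 (adjusted p = 0.146). In the same comparison IGF2R stood at 0.15 in place of 1.03 (adjusted p = 0.754), and INSR turned from 0.49 to -0.06 (adjusted p = 0.879). The 3 receptors were lower than Sow in this fit in every other formula group. IGF1R, IGF2R and INSR stood at -0.07, -0.50 and -0.51 in Soy, at -0.12, -0.44 and -0.57 in M + G, and at -0.11, -0.39 and -0.56 in Milk, and none passed the test. Against Milk, the IGF1R difference of M + E2 was 0.69, with an adjusted p of 0.0441 and less than a 2-fold difference. Against Soy, IGF1R, IGF2R and INSR were then higher in M + E2 by 0.66, 0.65 and 0.45 on the log2 scale, with adjusted p of 0.0240, 0.0327 and 0.0410. None of these differences reached 2-fold. At the adjusted p with 2-fold, this fit called 1.64% of all genes in Soy against M + E2, against 0.147% without the covariate. In M + E2 against Milk it called 0.499%, against 0.00% without the covariate. The shares of all genes at the adjusted p alone are not given, so these receptor results cannot be set against the background at that threshold. The summed ribosomal protein level was 25940.9 to 40408.5 CPM in M + E2 and 28273.2 to 41597.6 CPM in M + G. Neither group overlapped Sow, at 59703.5 to 111689 CPM. Diet and ribosomal protein share therefore cannot be told apart in the comparisons of these groups with Sow. The part of RNA quality or of tissue composition in the receptor levels was not tested.

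**Figure D3:**
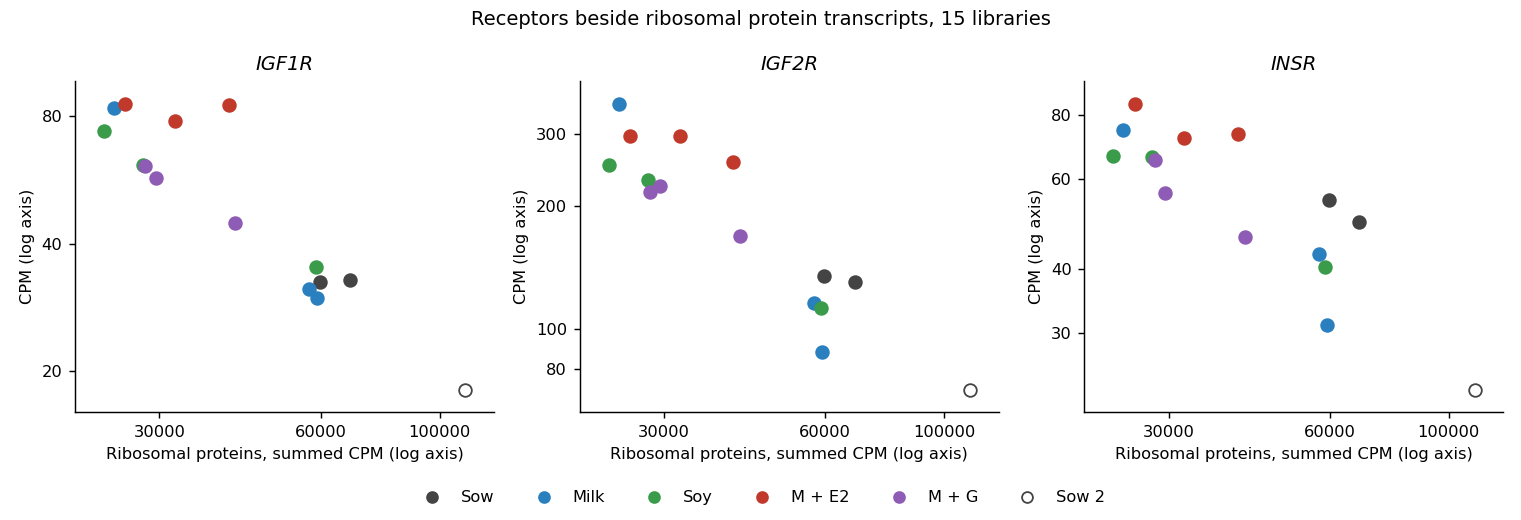
Level of IGF1R, IGF2R and INSR (CPM, vertical log axes) against the summed level of 53 ribosomal protein genes (CPM, horizontal log axes), with 1 point per library coloured by diet and Sow 2 open. The 6 libraries with 57142 CPM or more of ribosomal protein transcripts have the lowest IGF1R, at 18.1 to 35.2 CPM.

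IGFBP4 (ENSSSCG00000017472, chromosome 12, 21966524 to 21980043) encodes a binding protein that mostly inhibits the growth factors and is cleaved by the protease PAPPA. Its level was 294.2, 302.1 and 330.0 CPM in Sow unnumbered, 2 and 3. It was 421.9, 480.7 and 479.7 CPM in Milk 1, 2 and 3, and 427.0, 390.0 and 490.9 CPM in Soy unnumbered, 2 and 3. It was 385.4, 475.7 and 397.8 CPM in M + E2 1, 2 and 3, and 466.0, 554.5 and 511.3 CPM in M + G 1, 2 and 3. Each of the 12 formula-fed libraries was thus above each of the 3 Sow libraries, as was the case for 6.22% of all genes. This gene had the narrowest range of the 7, with the highest library at 1.88 times the lowest.

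The largest difference of IGFBP4 was in M + G, at 510.6 ± 44.2 CPM (SD, n = 3) against 312.1 ± 25.4 CPM in Sow (SD, n = 2). The log2 fold change was 0.68 (SE 0.19), with an unadjusted p of 0.00331 in edgeR's quasi-likelihood test and an adjusted p of 0.124. The log2 fold changes of Milk, Soy and M + E2 against Sow were 0.52, 0.47 and 0.36 (adjusted p = 0.380, 0.322 and 0.189). Among formula-fed groups, the intervals of all IGFBP4 differences lay within 2-fold, the bound farthest from 0 being that of M + E2 against M + G, whose interval ran from -0.67 to 0.04. Over the 14 libraries, the genes whose log2 levels were most like IGFBP4 were IER5L (r = 0.94), SPRYD3 (r = 0.92) and POMGNT2 (r = 0.91).

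IGFBP5 (ENSSSCG00000025924, chromosome 15, 118861816 to 118877787) encodes a binding protein that attaches to the extracellular matrix. Its level was 79.5, 51.6 and 120.4 CPM in Sow unnumbered, 2 and 3. It was 135.5, 397.4 and 223.9 CPM in Milk 1, 2 and 3, and 127.4, 148.2 and 494.3 CPM in Soy unnumbered, 2 and 3. It was 213.9, 277.5 and 220.2 CPM in M + E2 1, 2 and 3, and 199.8, 247.6 and 189.3 CPM in M + G 1, 2 and 3. The 12 formula-fed libraries were again all above the 3 Sow libraries, by a margin of 127.4 against 120.4 CPM at the nearest. Soy 3 and Milk 2, high in myoid markers, were the highest.

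The log2 fold change of IGFBP5 against Sow was 1.36 in Soy, 1.29 in Milk, 1.18 in M + E2 and 1.05 in M + G. None passed the test (adjusted p = 0.322, 0.395, 0.140 and 0.245). All 4 comparisons share the Sow libraries. Without Soy 3 the difference of Soy was 0.46, and without Milk 2 that of Milk was 0.81. With Sow 3 left out and Sow 2 put back, the log2 fold change was 1.97 in Soy and 1.85 in M + E2, so its size turned on which Sow libraries were used. Among formula-fed groups, the log2 differences lay between -0.24 and 0.30.

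IGFBP2 (ENSSSCG00000035392, chromosome 15, 118822092 to 118850985) encodes a binding protein found in the circulation and in many tissues, and lies 10830 bases from IGFBP5 on the same chromosome. Its level was 56.3, 36.7 and 64.1 CPM in Sow unnumbered, 2 and 3. It was 90.5, 147.5 and 107.5 CPM in Milk 1, 2 and 3, and 69.0, 108.2 and 100.6 CPM in M + E2 1, 2 and 3. Both groups were therefore above Sow without overlap. Soy unnumbered, 2 and 3 stood at 67.2, 44.5 and 103.9 CPM, and M + G 1, 2 and 3 at 60.6, 216.8 and 66.3 CPM, and both overlapped Sow. The M + G mean of 114.6 ± 88.6 CPM (SD, n = 3) rested on M + G 2, and without it the log2 fold change against Sow was 0.04 in place of 0.90. No IGFBP2 difference passed the test, and the smallest adjusted p against Sow was 0.281, for M + G.

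The comparisons with Sow ask what formula feeding did, together with the added compound in M + E2 and M + G. Against Sow, all 7 genes had a higher mean in Soy, M + E2 and M + G, and 6 of 7 did in Milk, with INSR the exception. With the ribosomal protein covariate the count of genes with a positive log2 fold change was 4 of 7 in Soy, M + G and Milk, since the 3 receptors lay below Sow, and 6 of 7 in M + E2, with INSR below. The median log2 fold change of the 7 was 0.70 in M + G, 0.58 in Soy, 0.56 in M + E2 and 0.52 in Milk, against 0.02, 0.02, 0.01 and 0.00 over all genes tested. In M + E2, 6 of the 7 were above the 2 fitted Sow libraries without overlap, when 33.5% of all genes were. The count was 4 in Milk (15.7% of all genes), 3 in Soy (18.4%) and 4 in M + G (27.5%). The percentages of genes called in M + G, Soy and Milk were 0.0576%, 0.0128% and 0.0192%. At an unadjusted p under 0.05 there were 3 of the 7 genes in Milk (12.1% of all genes), 2 in Soy (15.0%), 1 in M + G (23.6%) and 2 in M + E2 (33.8%).

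From Milk, M + E2 and M + G differ by the compound added, whereas Soy is another formula. Against Milk, the receptors were higher in M + E2 while IGF1 and the 3 binding proteins had lower means, and every gene overlapped between the groups. IGF1R and INSR had an unadjusted p under 0.05 there, when 17.7% of all genes did. Adding genistein gave log2 differences from -0.64 for IGF1 to 0.18 for INSR, with adjusted p between 0.940 and 0.999. For IGF1R, IGFBP2, IGFBP4 and INSR the 95% interval of M + G against Milk lay within 2-fold. Soy against Milk gave -0.64 for IGFBP2 to 0.27 for IGF1R, and for IGFBP4 and INSR the interval lay within 2-fold. None of the 7 genes was called in these 3 comparisons by edgeR's quasi-likelihood test, DESeq2 or the exact test. The quasi-likelihood test called 0.00% of all genes in each. In M + G or Soy against Milk, and in the 3 comparisons of Soy, M + E2 and M + G with each other, none of the 7 had an unadjusted p under 0.05. Of all genes, 2.60% had such a p in M + G against Milk, 2.44% in Soy against Milk, 13.0% in Soy against M + E2, 7.01% in M + E2 against M + G and 3.65% in Soy against M + G. Soy against M + E2 called 0.147% of all genes.

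**Figure D4:**
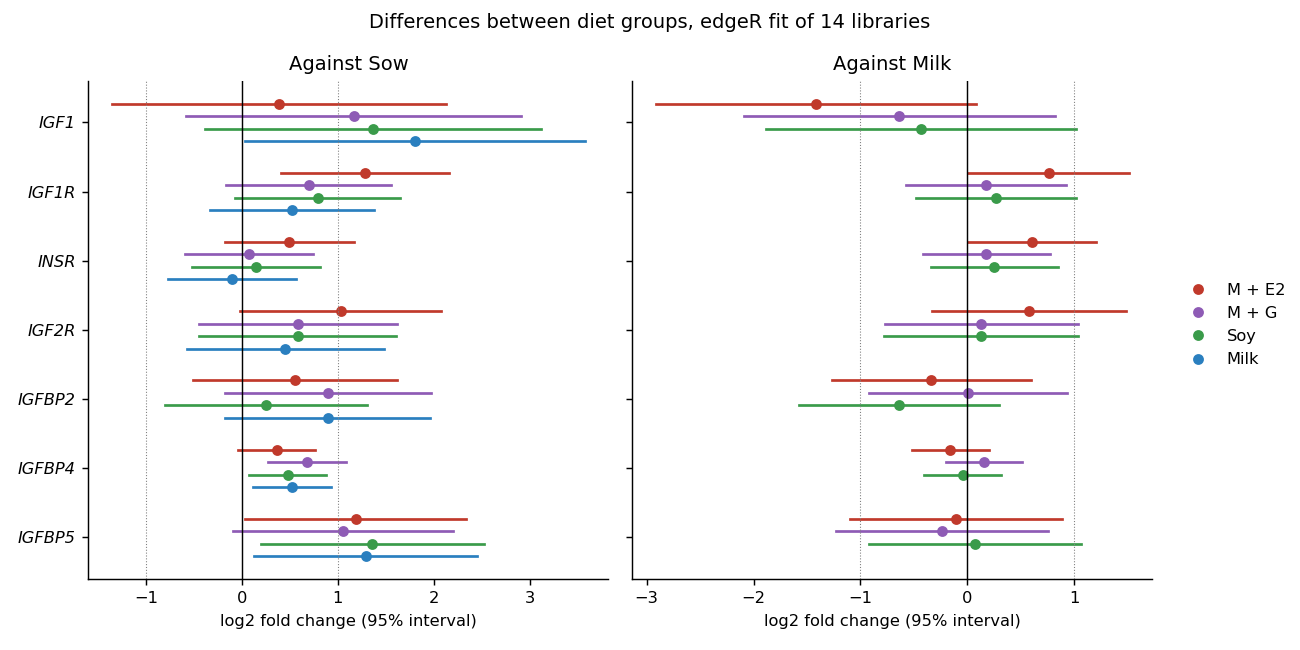
Log2 fold change (horizontal axis) of each of the 7 genes against Sow on the left and against Milk on the right, from the edgeR fit of 14 libraries. Points are estimates, bars are 95% intervals, and dotted lines mark 2-fold. IGFBP4 has the narrowest intervals, and the receptors lie right of 0 in M + E2 against Milk, with IGF1R at 0.76, INSR at 0.60 and IGF2R at 0.58.

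The rest of the pathway was followed in 68 further genes, of which 63 were found and 60 tested. They comprised growth hormone signalling, other binding proteins, binding protein proteases, regulators of the IGF2 transcript, other insulin family genes, adaptors and the AKT, mTOR and ERK branches. In M + E2 against Sow, 38 had a higher and 22 a lower mean, and 1 passed the test as lower, against 3.56% of all genes. No gene of the list passed in the other 9 comparisons. The median log2 fold change was 0.33 over 13 PI3K, AKT and FOXO genes, 0.44 over 6 adaptors, -0.16 over 10 mTOR branch genes and -0.20 over 9 RAS and ERK genes. All 6 proteases and their inhibitors had a higher mean, with a median of 0.28 and none called.

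The gene that passed was GRB14, which encodes an adaptor that binds the activated insulin receptor and inhibits its kinase. It was 364.1, 627.8 and 349.4 CPM in Sow unnumbered, 2 and 3, and 155.7, 117.5 and 175.1 CPM in M + E2 1, 2 and 3. The other formula-fed libraries lay between 94.6 CPM in Soy 3 and 245.3 CPM in Milk 1. GRB14 was therefore lower in all 12 formula-fed libraries than in all 3 Sow libraries, as were 7.58% of all genes. It fell by 1.32 on the log2 scale in M + E2 against Sow (SE 0.31, adjusted p = 0.0381). The log2 fold changes in Soy, M + G and Milk were -1.31, -1.17 and -1.06, with adjusted p of 0.320, 0.124 and 0.360. The study itself lists GRB14 among the genes lower in Soy than in Sow.

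The GRB14 call was lost without Soy 2 (adjusted p = 0.0568), without M + E2 1, 2 or 3 (0.116, 0.126 and 0.0655), without M + G 1 (0.0519) and without M + G 3 (0.0539), while the log2 fold change in these fits stayed between -1.46 and -1.17. It was called in 15 of 24 alternatives, among them DESeq2 (adjusted p = 0.00257) and the exact test (adjusted p = 1.4e-10). With the ribosomal protein covariate its log2 fold change was -1.06 and its adjusted p 0.113. In the same comparison RPS6KB1, the kinase of ribosomal protein S6, passed the adjusted p (0.0406) with a log2 fold change of -0.72, less than 2-fold. The upward gene with the smallest adjusted p was IGF2BP2, which encodes a binding protein of the IGF2 transcript, at 34.3, 33.5 and 34.8 CPM in M + E2 1, 2 and 3 and 20.9, 17.8 and 23.3 CPM in Sow unnumbered, 2 and 3. Its log2 fold change was 0.56 (SE 0.16, adjusted p = 0.0507), and the groups did not overlap. With all 3 Sow libraries in the fit, 10 of the 59 listed genes tested were higher and 1 lower, when 18.1% of all genes were called.

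**Figure D5:**
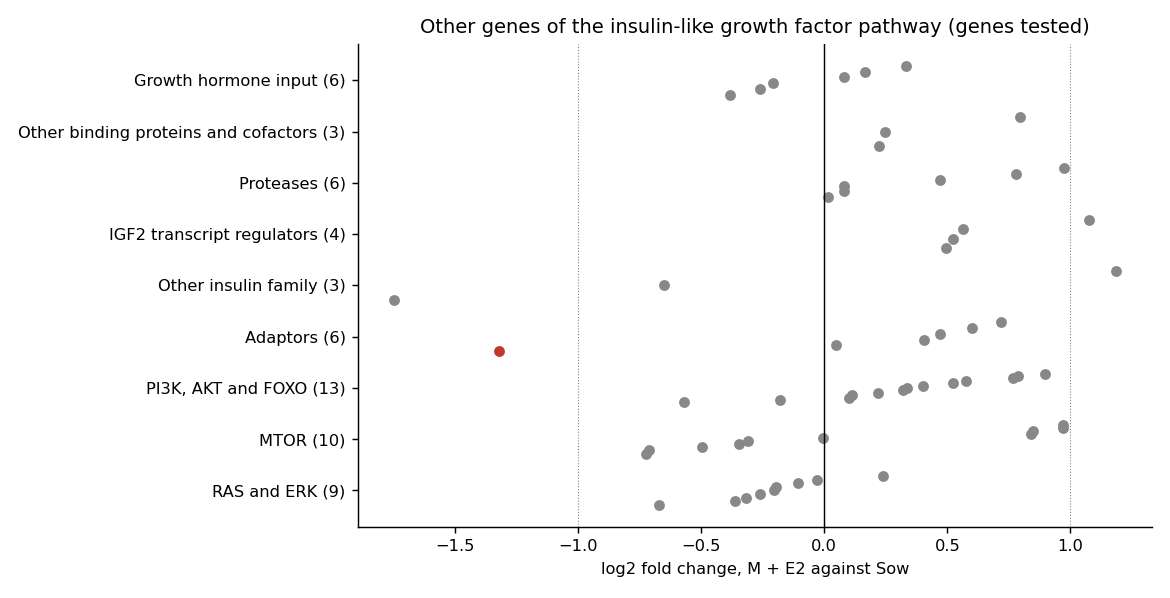
Log2 fold change (horizontal axis) in M + E2 against Sow of the 60 further pathway genes tested, by list, with the number of genes in brackets and 1 point per gene. Dotted lines mark 2-fold. The red point is GRB14, the only gene called, at -1.32.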

How the data were processed

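The deposited values are raw read counts per gene and library, which the authors made in the CLC Genomics Workbench from trimmed single-end reads and did not normalize. The study mapped reads to a porcine gene library before the Ensembl pig genome, and whether these counts hold all reads was not determined. Gene positions on Sscrofa11.1 come from RefSeq, matched by symbol. The members, lists and thresholds were chosen with earlier results of these data known.

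Analysis of the counts used edgeR 4.0.16 in R 4.3.3. Genes were kept by filterByExpr at a minimum count of 10, and libraries scaled by TMM. A single quasi-likelihood fit of the 5 groups used 14 libraries, without Sow 2, and p-values were adjusted by Benjamini-Hochberg over all 15634 genes tested. A gene was called at an adjusted p of at most 0.05 and at least 2-fold (in the test over 5 groups, at the adjusted p alone). Intervals are 95% intervals of the fit. The scripts were tested on simulated data. In M + E2 against Sow, the adjusted p was passed there by 10 of 98 genes with a simulated log2 change of 1. At a simulated log2 change of 2 it was passed by 75 of 99. Differences near 2-fold were thus often missed in the simulation. There, 15166 of 15363 genes were left unchanged, whereas in the data 7.97% of all genes passed the adjusted p in this comparison. The simulated shares are therefore not the chance of passing in the data. Every listed gene was named, and of the further pathway genes those called, with IGF2BP2 and RPS6KB1 added after their values were seen. Genes of like pattern are given for the member with the smallest p over the 5 groups.

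Piglets of a group were separate animals. Replicate numbers do not mark litters in the labels, but same-numbered Milk and M + G libraries deviated together (r = 0.23, 0.51 and 0.42), so that this comparison was also fitted with a replicate block. In the other pairs of groups r ran from -0.48, for Milk 2 and Soy 2, to 0.50, for Sow 3 and Soy 3. Whether the numbers mark a pairing of piglets was not tested. Alternatives were DESeq2 1.42.0, edgeR's exact test, other filters and scalings, Sow 2 included, and each library left out.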

Additional observations from a re-analysis of the deposited data

How the results depend on the processing

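Of 273 recomputed counts of called genes, 256 were unchanged, mostly at 0, and 17 moved. In M + E2 against Sow, 3 of the 7 genes were called with all 3 Sow libraries, with a fit of the 2 groups alone and with the exact test, in each case IGF1R, IGF2R and IGFBP5, and 1, IGF1R, with no filter and with DESeq2. The background was 18.1%, 12.3%, 12.6%, 3.89% and 8.50% of all genes. In M + G against Sow, 1, IGFBP5, was called with the fit of the 2 groups (background 5.38%) and with the exact test (6.48%). Over the 5 diets, DESeq2's likelihood ratio test called 1, IGFBP4 (6.77%). Leaving out each library in turn, with Sow 2 put back when a Sow library was left out, gave 0 to 4 calls in M + E2 against Sow and 0 to 1 in M + G against Sow, the most when Sow 2 took the place of Sow 3 (background 21.3% and 13.0%). It gave 0 to 3 in M + E2 against Milk and 0 to 2 over the 5 diets, the most without Milk 3 (8.04% and 6.67%). The cause was not tested.

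Of the 70 pairs of a gene and a comparison, 38 had the same direction in every alternative and 32 turned in at least 1, of which 12 of 28 against Sow. With the ribosomal protein covariate 14 turned, 9 of them against Sow, all of a receptor. The differences of the 7 genes that had an unadjusted p under 0.05, and that of GRB14 in M + E2 against Sow, kept their direction in all alternatives. A replicate block over the numbered libraries gave 0 calls in every comparison, as did the same libraries without it, and a block on Milk and M + G alone gave 0. The log2 fold change of GRB14 in M + E2 against Sow was -1.41 with the block and -1.27 in the same libraries without it. Depth was sufficient for all 7 genes, IGF1 having at least 30 reads in each library. The small groups limited precision, and the IGF1 intervals spanned more than 2-fold.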

Other observations

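IGFBP6, which encodes a binding protein that prefers IGF2, was found only under the identifier ENSSSCG00000000261 and was looked at after the other genes. Its level was 49.7, 71.9 and 71.1 CPM in Sow unnumbered, 2 and 3, and 86.2, 162.2 and 62.9 CPM in Milk 1, 2 and 3. Soy unnumbered, 2 and 3 stood at 77.0, 28.6 and 87.7 CPM, M + E2 1, 2 and 3 at 32.9, 64.4 and 54.3 CPM, and M + G 1, 2 and 3 at 36.01, 139.1 and 49.0 CPM. Milk 2, M + G 2 and Soy 3 were the 3 highest, as for IGF1. No comparison of IGFBP6 passed the edgeR test, the smallest adjusted p being 0.302, in M + E2 against Milk (log2 -1.06).

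IGFBP7, which encodes a binding protein with low affinity for the growth factors, was 1509 CPM in Milk 2, 1045 CPM in Soy 3 and 993.6 CPM in M + G 2, again the 3 highest libraries. The other 12 libraries held 418.3 to 677.9 CPM. No IGFBP7 comparison passed the test.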
